A study of Mus musculus with 4 samples.

Results

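NKT-like cells were examined in 4 mouse liver libraries of single-cell RNA, prepared with the 10x Genomics 5′ chemistry. They are T cells that carry RNA for Klrb1c, the NK1.1 receptor of natural killer (NK) cells. A barcode was a member when it had at least 500 unique molecular identifiers (UMIs, 1 per captured RNA molecule), at least 300 genes and at most 25% mitochondrial UMIs, a sum of at least 2 UMIs of Cd3d, Cd3e and Cd3g, and at least 1 Klrb1c UMI. It also had to have 0 UMIs of Cd8a and Cd8b1, Foxp3, Trdc, Ncr1, Csf1r and Stab2, fewer than 2 UMIs of Mki67 and Top2a together, and fewer than 2 Cd79a UMIs. The rule kept 664 of 42454 passing barcodes. The libraries cross 2 genotype labels of Mef2d, KO and WT, with 2 tissues, premalignant liver and eHCC (early hepatocellular carcinoma), and each of the 4 groups is 1 library. Both kinds of tissue were washed, minced on ice and enzymatically dissociated before capture. The strain, the age, the number of animals behind each library, the deleted part of Mef2d, the cells that lost it and the way tumours arose are not stated in the labels. Values are listed throughout in the order KO-labelled premalignant, WT-labelled premalignant, KO-labelled eHCC and WT-labelled eHCC.

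Natural killer T (NKT) cells are αβ T cells that recognise lipids presented by CD1d rather than peptides. Most of those in mouse liver, the invariant NKT cells, use one receptor α chain, joined from the segments Trav11 and Traj18, and develop under the transcription factor PLZF, encoded by Zbtb16. They patrol the liver sinusoids, where the receptor Cxcr6 and its ligand Cxcl16 retain them, and release interferon-γ and interleukin-4 within hours of activation. Subsets are named for their leading factors: NKT1 for Tbx21 and NKT2 for Gata3, while NKT17 cells are named for their cytokine. Klrb1c RNA is also carried by NK cells and by some conventional and γδ T cells, so the rule does not select invariant NKT cells alone.

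The labelled gene, Mef2d (GRCm38 chr3:88142372-88172086), encodes a MADS-box transcription factor. The members held 121, 54, 100 and 37 Mef2d UMIs, or 97.5, 59.1, 83.3 and 65.1 CPM (counts scaled to 1000000 UMIs), in 95, 48, 64 and 29 cells. The level was thus not lower in the KO-labelled libraries: the log2 ratio of KO to WT was 0.72 (95% interval 0.25 to 1.21) in premalignant tissue and 0.36 (−0.20 to 0.94) in eHCC. Since the sources used here do not say which part of the gene or which cells were targeted, this does not check the label, and the libraries are called KO-labelled and WT-labelled. Its paralog Mef2a was at 148, 96.3, 118 and 106 CPM in the members.

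Members had medians of 4608, 4373, 8756 and 6961.5 UMIs per cell and gave 1241243, 913428, 1200306 and 568088 UMIs in all. No barcode was shared between the members of different libraries, while 23 to 45 passing barcodes were shared between any 2 libraries. RNA of other cell types was present among the members and differed between libraries. A list of 5 erythroid genes summed to 44.3, 150, 30066 and 2894 CPM, so that haemoglobin RNA made up 3.0% of member UMIs in the KO-labelled eHCC library. A list of 10 hepatocyte genes summed to 529, 2949, 16.7 and 218 CPM, 10 myeloid genes to 197, 734, 227 and 1943 CPM, 8 endothelial genes to 534, 342, 125 and 95.1 CPM and 10 B cell genes to 405, 1013, 137 and 620 CPM. In the members, 10 NK markers summed to 649, 569, 958 and 817 CPM, against 13009, 12206, 13472 and 6278 CPM in NK cells. A list of 7 γδ T cell markers summed to 360, 374, 95.8 and 128.5 CPM in members and 131, 124, 55.1 and 107.6 CPM in counterparts, with Trdv4 and Cd163l1 at 0 in the members of all 4 libraries. The part of these RNAs in the results was not tested.

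The receptor segments of invariant NKT cells were read in the 5′ libraries, and are shown because they are the feature that defines these cells and was not used by the rule. Trav11 lies at GRCm38 chr14:53519303-53519859 on the plus strand, and has 343 bases in 2 exons in the GENCODE vM21 annotation, of which the 291 bases of exon 2 (chr14:53519569-53519859), which encode most of the variable domain, are given. Traj18 covers 66 bases at chr14:54200777-54200842.
Trav11 exon 2: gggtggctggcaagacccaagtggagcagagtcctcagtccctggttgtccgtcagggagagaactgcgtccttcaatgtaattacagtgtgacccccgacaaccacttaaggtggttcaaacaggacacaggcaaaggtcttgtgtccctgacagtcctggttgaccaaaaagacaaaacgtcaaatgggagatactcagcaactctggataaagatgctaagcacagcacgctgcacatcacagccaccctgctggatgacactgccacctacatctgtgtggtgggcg
Traj18: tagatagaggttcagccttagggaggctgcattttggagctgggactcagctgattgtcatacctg
A second gene, Trav11d at chr14:52824357-52824912, differs from Trav11 at 0 of 342 compared bases, so how reads were divided between the 2 genes is uncertain. Trav11 RNA was found in 27, 17, 14 and 13 members, which is 10.3%, 8.90%, 10.6% and 16.2% of them. Trav11d and Traj18 had 0 UMIs in the members.

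Trav11 was more often seen in the members than in T cells that met every other condition of the rule and had 0 Klrb1c UMIs, called Klrb1c-negative counterparts below. Those numbered 672, 610, 1265 and 819 cells, with median depths of 4338.5, 4376, 5940 and 5185 UMIs, and 4.76%, 2.13%, 1.42% and 2.32% of them had a Trav11 UMI. In NK cells (at least 1 UMI each of Klrb1c and Ncr1 and none of the 3 Cd3 genes; 168, 112, 156 and 161 cells) Trav11 was at 0, which allows shares of cells with a Trav11 UMI of up to 1.79%, 2.68%, 1.92% and 1.86%, and sets no limit on cells that express the gene. After thinning every cell to 1500 UMIs the shares were 3.89%, 3.26%, 4.55% and 6.41% in members and 2.23%, 1.36%, 0.16% and 0.743% in counterparts. Thus most members showed no Trav11 RNA at this depth. Most T cells with Trav11 RNA also lay outside the members. Of all cells with at least 2 Cd3 UMIs, 80, 45, 43 and 45 had a Trav11 UMI. Members were 27, 17, 14 and 13 of these, and counterparts 32, 13, 18 and 19.

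Zbtb16 and Cxcr6, both named as markers of the cells and neither used by the rule, bear on the label. Zbtb16 had a UMI in 58, 39, 23 and 9 members (22.2%, 20.4%, 17.4% and 11.2%), in 9.08%, 5.90%, 3.40% and 4.76% of counterparts, and in 5.36%, 3.57%, 6.41% and 0% of NK cells. After thinning to 1500 UMIs, 8.17%, 6.52%, 3.79% and 1.28% of members and 4.14%, 2.2%, 1.28% and 1.49% of counterparts had one, so in the WT-labelled eHCC library the order of the shares was turned. Cxcr6, the liver homing receptor, was detected in 92.0%, 95.3%, 57.6% and 78.8% of members. The counterparts had 48.2%, 42.8%, 42.5% and 52.6%, NK cells 33.3%, 47.3%, 22.4% and 32.3%, and B cells, which should lack it, 1.46%, 0.786%, 0.723% and 0.926%. Thinned, the Cxcr6 shares of members were 70.4%, 79.3%, 17.4% and 48.7% and those of counterparts 33.6%, 31.4%, 20.3% and 28.2%. In the KO-labelled eHCC library the members therefore stood at or below the counterparts for Cxcr6, with 173 against 207 CPM, and went against that marker. At least 1 UMI of the receptor constant genes Trac, Trbc1 or Trbc2 was detected in 261, 191, 131 and 80 of the 261, 191, 132 and 80 members. Trac itself, the α chain gene, was detected in 240, 183, 123 and 71 of them. It was detected in 86.3%, 90.3%, 94.5% and 89.0% of counterparts and in 5.95%, 6.25%, 15.4% and 7.45% of NK cells. The name NKT-like is kept for cells chosen by the rule, which are a mixture. Of the 27, 17, 14 and 13 members with Trav11 RNA, 5, 3, 5 and 2 also had Zbtb16 RNA.

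Klrb1c was at exactly 1 UMI in 149, 103, 78 and 47 members, 57.1%, 53.9%, 59.1% and 58.8% of them. Members just inside that threshold and those with at least 2 Klrb1c UMIs had similar Cxcr6 levels: 848, 1204, 171 and 375 CPM against 939, 1186, 177 and 323 CPM. Their Zbtb16 levels were 66.1, 36.3, 24.0 and 20.9 CPM against 64.2, 69.3, 32.6 and 17.2 CPM. Just outside the rule, 15, 9, 35 and 8 cells failed by 1 Cd8a or Cd8b1 UMI and 4, 0, 10 and 11 cells failed by 1 Ncr1 UMI. The NK adaptor Tyrobp was at 494, 0, 1199 and 1271 CPM in the cells with 1 Ncr1 UMI, and at 61.8, 145, 87.4 and 113 CPM in members with 1 Klrb1c UMI. These values chose or border the members and are given as a description.

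NKT-like cells made up a larger share of barcodes in the KO-labelled library at each stage and a smaller share in eHCC under each label. There were 261, 191, 132 and 80 members, 2.75% (exact Clopper-Pearson 95% interval 2.43 to 3.10), 1.39% (1.20 to 1.60), 1.47% (1.23 to 1.74) and 0.778% (0.617 to 0.967) of passing barcodes. The KO-labelled library had 1.97-fold the WT share in premalignant tissue (log2 0.98, 0.71 to 1.26) and 1.89-fold in eHCC (log2 0.92, 0.51 to 1.34). Between stages, the share was 1.87-fold lower in eHCC under the KO label and 1.79-fold lower under the WT label, log2 ratios of −0.90 and −0.84. When every barcode was thinned to 1500 UMIs before the rule was applied, these were −1.61 and −1.60. With all cells that had at least 2 Cd3 UMIs as the denominator (2591, 2434, 5677 and 4519 T cells), the shares were 10.1%, 7.85%, 2.33% and 1.77%. The KO-to-WT log2 ratio then came to 0.36 (0.09 to 0.64) in premalignant tissue and 0.39 (−0.02 to 0.81) in eHCC, and the stage ratios to −2.12 and −2.15. Intervals here and below cover counting error alone. Since each group is 1 library, there is no replicate check, no test was made between libraries, and differences between tissues, captures and labels cannot be told apart.

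**Figure D1:**
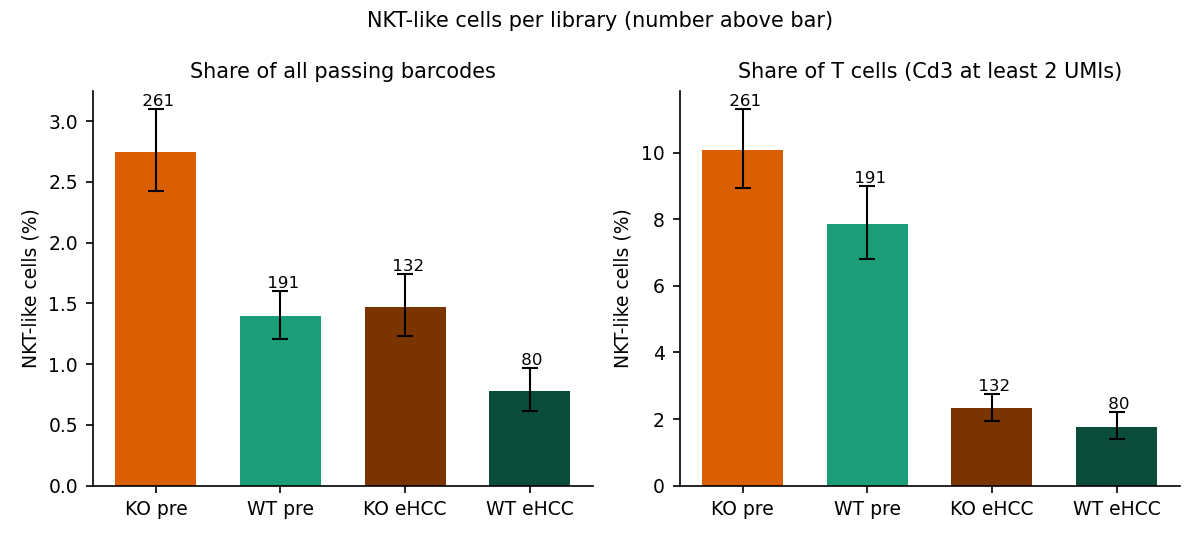
NKT-like cells as a percentage of all passing barcodes (left) and of T cells with at least 2 Cd3 UMIs (right), 1 bar per library, with exact 95% binomial intervals and the number of cells above each bar. Both denominators put the eHCC libraries lowest within each label, from 10.1% and 7.85% of T cells in premalignant tissue to 2.33% and 1.77% in eHCC.

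Tbx21 and Gata3, and Ifng and Il4, were read in the members of each library, and Il17a in few or 0 cells. Tbx21, the NKT1 factor, stood at 146, 131, 73.3 and 75.7 CPM in the members and was detected in 46.0%, 38.7%, 42.4% and 38.8% of them. Gata3, the NKT2 factor that conventional T cells also use, was at 158, 151, 70.8 and 132 CPM. Ifng was at 652, 581, 212 and 327 CPM and detected in 72.4%, 68.6%, 55.3% and 55.0% of members. Il4 was at 72.5, 100.7, 33.3 and 45.8 CPM and detected in 24.5%, 33.0%, 15.2% and 17.5%. Il17a was at 0 CPM in 3 libraries and 8.80 CPM in WT-labelled eHCC. Ifng and Il4 were both lower in the eHCC libraries. Since these cells were dissociated before capture, whether cytokine RNA reflects the tissue or the handling was not tested.

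**Figure D2:**
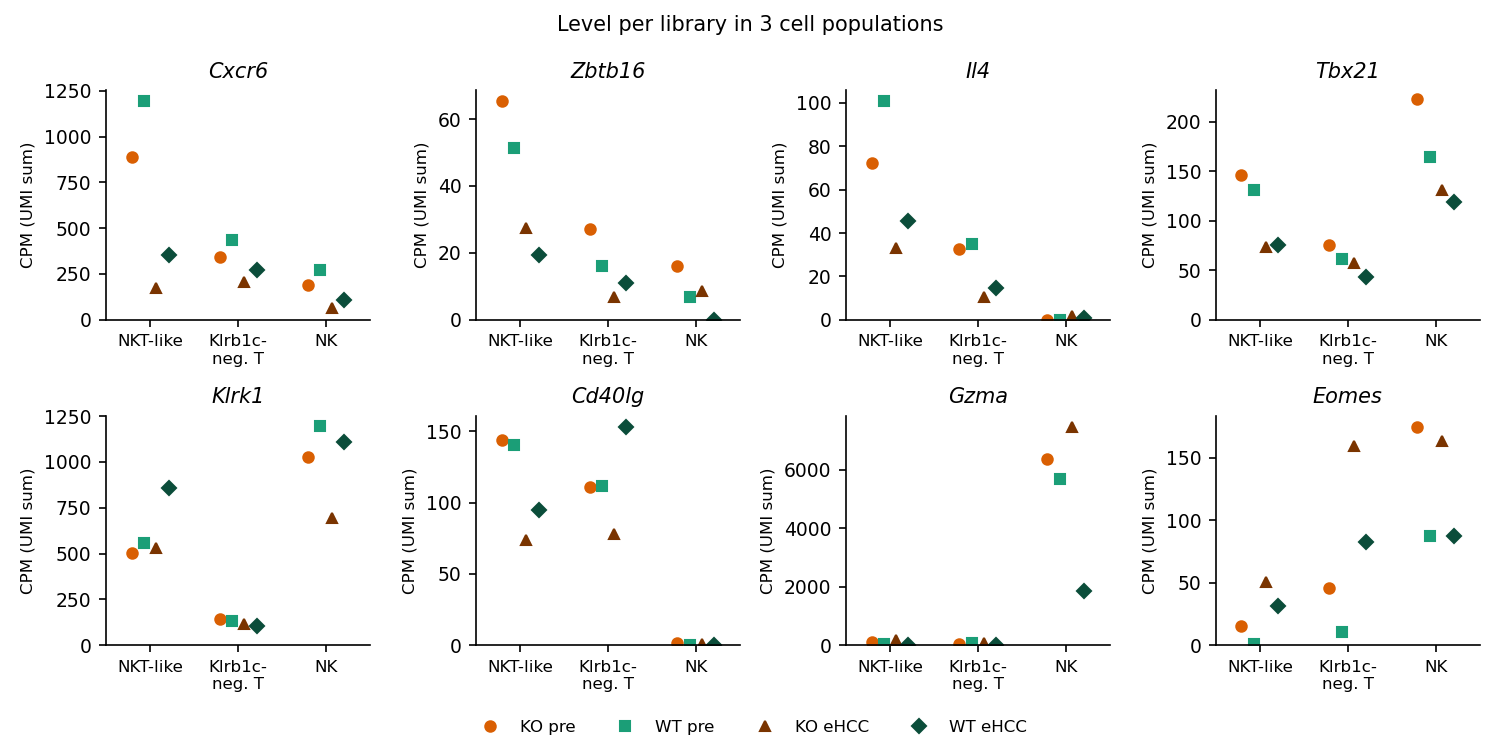
Level of 8 genes (CPM of summed UMIs, linear axes from 0) in NKT-like cells, Klrb1c-negative counterparts and NK cells, 1 point per library. Zbtb16 and Il4 were higher in NKT-like cells than in both other populations in each library, Klrk1 lay between counterparts and NK cells, and Cxcr6 in the KO-labelled eHCC library (173 CPM) lay among the counterparts.

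The members were set against their Klrb1c-negative counterparts across the 4 libraries, with edgeR's quasi-likelihood test and the library as a block, leaving out the genes of the rule. Differences here are log2 fold changes of members over counterparts with their standard errors (SE), and p-values were adjusted over all 10178 genes by the Benjamini-Hochberg method. NKT-like cells had more RNA of NK receptors, of the cytokine receptor chains Il2rb, Il12rb2 and Il18rap, of Il4 and of Zbtb16, and less of checkpoint receptors, Il10, Cd4 and Eomes. In all, 163 genes (1.60%) were higher and 214 (2.10%) lower at an adjusted p of 0.05. Without the WT-labelled eHCC library these became 84 and 67, without KO-labelled premalignant 88 and 120, without WT-labelled premalignant 182 and 348, and without KO-labelled eHCC 119 and 145. Fitted without the library block, 15 genes were higher and 25 lower. The p-values measure the spread between 4 libraries of 4 different conditions.

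Killer lectin-like receptors, the family of NK receptors to which Klrb1c belongs, were the list with the most calls: 14 of 18 tested rose and 0 fell, with a median of 2.08, beside a median of −0.06 over all genes. Klrb1c alone divided members from counterparts. Genes that accompany it in a cell stayed in the test, so these rises are not independent of how the cells were chosen. Klrk1 encodes NKG2D, an activating receptor for stress ligands. It stood at 504, 556, 528 and 856 CPM in members and 144, 133, 114 and 107 CPM in counterparts (log2 fold change 2.24, SE 0.19, edgeR adjusted p = 0.00076), and the 2 sets of values did not overlap. Klrd1, which pairs with the NKG2 chains, was at 383, 394, 282 and 335 CPM against 131, 116, 96.4 and 62.1 CPM (1.78, SE 0.16, adjusted p = 0.00076). Klre1, which pairs with the Klri chains, was at 236, 188, 294 and 243 CPM against 58.5, 71.7, 59.1 and 24.1 CPM (2.21, SE 0.27). Among the Ly49 genes, inhibitory or activating receptors for MHC class I, Klra9 rose by 2.67 (SE 0.27), Klra1 by 2.60 (SE 0.23), Klra7 by 2.5 (SE 0.30) and Klra6 by 2.36 (SE 0.44). The call of Klra6 was lost without either eHCC library. Klrc1 and Klrc2, the NKG2A and NKG2C chains, rose by 2.09 (SE 0.20) and 2.07 (SE 0.21). Styk1, a kinase-like gene of NK cells, rose most among the genes named by rule, from 3.82, 3.55, 1.70 and 3.42 CPM in counterparts to 16.1, 21.9, 18.3 and 40.5 CPM (2.93, SE 0.35, adjusted p = 0.0023). Several Klr genes are near-identical copies, so how reads were divided among the Ly49 genes is uncertain.

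These receptors are neighbours of Klrb1c (chr6:128778485-128789215) in one block of chromosome 6. Between chr6:128609227 and 131247362 the annotation places 24 Klr genes. Of the 26 genes tested in that interval, 15 rose and 0 fell, with a median of 1.82. In the comparison with NK cells below, 1 of 23 rose and 13 fell. Promoter sequences, from RefSeq on GRCm38.p6, were at hand for 15 of the 18 listed receptors and are shown for the 2 that held an AP-1 motif (TGANTCA, either strand, in capitals): Klrk1 at chr6:129623815-129624114 and Klrc2 at chr6:129660547-129660846, both on the minus strand, each from 250 bases before the gene's start to 50 after it. The motif began 17 bases after the start in Klrk1 and 41 after it in Klrc2.
Klrk1 promoter: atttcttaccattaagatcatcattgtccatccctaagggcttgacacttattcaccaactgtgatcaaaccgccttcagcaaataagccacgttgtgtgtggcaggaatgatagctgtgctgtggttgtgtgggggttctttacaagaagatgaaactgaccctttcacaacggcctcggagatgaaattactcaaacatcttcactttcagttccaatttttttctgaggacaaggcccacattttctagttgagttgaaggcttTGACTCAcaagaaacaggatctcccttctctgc
Klrc2 promoter: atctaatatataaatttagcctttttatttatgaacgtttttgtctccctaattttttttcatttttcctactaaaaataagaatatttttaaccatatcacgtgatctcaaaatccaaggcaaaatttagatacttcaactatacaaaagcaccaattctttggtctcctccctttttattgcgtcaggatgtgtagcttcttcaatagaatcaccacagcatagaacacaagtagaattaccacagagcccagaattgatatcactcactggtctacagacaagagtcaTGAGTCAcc
The 2 matching genes were 13.3% of the 15 receptors. Of the 27025 genes with a promoter in the table, 8.97% held that motif in any of their promoters. A T-box motif (AGGTGTGA, either strand) was in 0 of the 15 and in 1.48% of all these genes, counted in the same way. A match of letters is a description of the window.

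Of 15 NKT1 genes tested, 9 rose and 0 fell (median 0.95). Among the 9, Klrc1, Klrd1 and Klrk1 were already counted with the killer lectin-like receptors. Tbx21 rose by 0.77 (SE 0.13, adjusted p = 0.012) and Il2rb, the β chain shared by the interleukin-2 and interleukin-15 receptors, by 0.95 (SE 0.14). Xcl1, a chemokine for cross-presenting dendritic cells, rose by 1.25 (SE 0.19), from 220, 191, 168 and 147 CPM in counterparts to 414, 323, 585 and 454 CPM in members. Il12rb2, the inducible chain of the interleukin-12 receptor, rose by 1.83 (SE 0.19) and the granule protease gene Gzmb by 1.16 (SE 0.22). Ifng did not pass (0.44, SE 0.23, adjusted p = 0.43): the members exceeded the counterparts clearly in the premalignant libraries (652 and 581 against 304 and 275 CPM), but in KO-labelled eHCC they were at 212 against 300.1 CPM. Cxcr6 likewise missed the threshold (0.74, SE 0.24, adjusted p = 0.16), higher in 3 of 4 libraries.

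Zbtb16 rose by 1.45 (SE 0.20, adjusted p = 0.0054), from 27.0, 16, 6.81 and 10.9 CPM to 65.3, 51.5, 27.5 and 19.4 CPM. Members exceeded counterparts in 4 of 4 libraries, although the ranges over libraries overlapped. Trav11 rose by 1.91 (SE 0.37, adjusted p = 0.023), with 117 UMIs in members and 139 in the more numerous counterparts. Il4, the lead cytokine of NKT2 cells, rose by 1.44 (SE 0.15, adjusted p = 0.0013), from 32.4, 34.8, 10.7 and 14.5 CPM to 72.5, 100.7, 33.3 and 45.8 CPM. Of the 7 NKT2 genes tested, 2 rose (Il4 and Plac8) and 2 fell (Il6ra by 2.58 and Izumo1r by 1.46), and Gata3 had a log2 fold change of 0.13 (adjusted p = 0.65). Of 9 NKT17 genes, 0 rose and 2 fell, Ccr6 and Serpinb1a. Follicular and regulatory NKT genes fell in 5 of 7 cases and rose in 0. Il10, an anti-inflammatory cytokine, had 2 UMIs in members and 552 in counterparts (−5.33, SE 0.49), and Il21 fell by 4.53. Among 14 residency genes 3 rose, including Itga1, the collagen-binding integrin of liver-resident cells, from 110, 73.5, 19.9 and 50.2 to 242, 150, 47.5 and 239 CPM (1.39, SE 0.21).

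Checkpoint and exhaustion genes fell in 7 of 16 cases and rose in 1 (Cd160, by 1.58). Pdcd1, encoding PD-1, was at 0.81, 9.85, 18.3 and 3.52 CPM in members and 18.1, 39.0, 162 and 75.2 CPM in counterparts (−3.13, SE 0.27, adjusted p = 0.00076). Tnfrsf4, the costimulatory receptor OX40, fell by 4.70 (SE 0.24), from 41.0, 55.7, 316 and 154 to 3.22, 3.28, 7.50 and 7.04 CPM, and Lag3 by 3.48. Gzmk, a granzyme of memory-like T cells, fell by 3.88 (SE 0.26). In counterparts Pdcd1, Tnfrsf4 and Gzmk were each highest in the KO-labelled eHCC library, and the members lay below the counterparts in 4 of 4 libraries for each. The chemokine genes Ccl4 and Ccl3 fell by 1.69 and 0.80, Ccr7, the lymph node homing receptor, by 2.93 (SE 0.40), and Eomes, the T-box factor of NK and memory cells, by 1.63 (SE 0.18). Sostdc1, a secreted BMP and Wnt antagonist, had 0 UMIs in members and 372 in counterparts, at least 25.8-fold lower against a floor of 3 UMIs over the members of the 4 libraries. Conventional CD4 T cell markers fell in 3 of 8 cases, Cd4 by 2.53 (SE 0.27), and their sum was 768, 654, 670 and 482 CPM in members against 1662, 1718, 789 and 899 CPM in counterparts. Of 4 γδ T cell markers tested, Tcrg-C1 and Tcrg-C4 rose by 1.15 and 1.51, and of 10 NK markers 3 rose, among them Fcer1g (1.49, SE 0.10) and Tyrobp (1.00, SE 0.20), and 1 fell. The share of these calls that such cells carry was not tested.

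**Figure D3:**
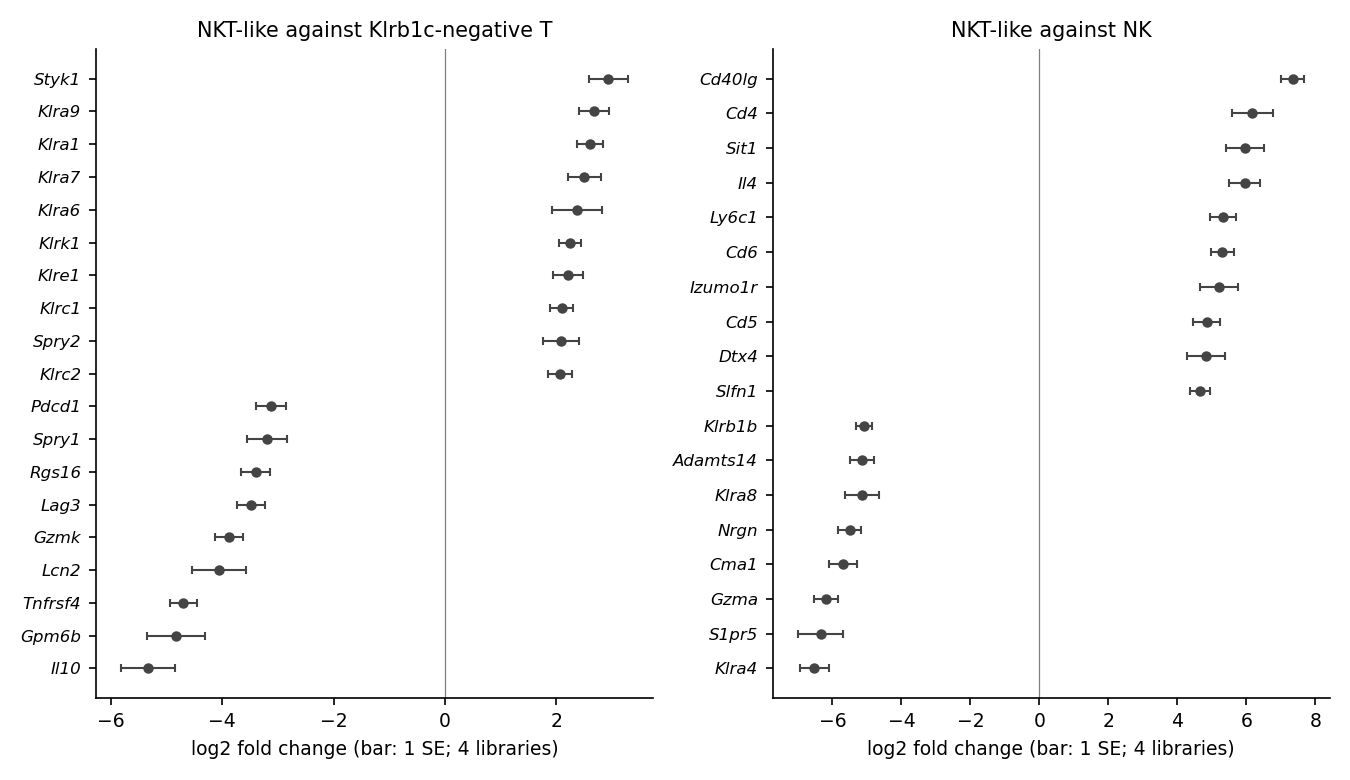
Log2 fold change with its SE for the genes named by rule, NKT-like cells over Klrb1c-negative counterparts (left) and over NK cells (right), over 4 libraries. Named genes with 0 UMIs in the members are not drawn: Sostdc1 on the left, and Phactr3 and Prss2 on the right. On the left Klr receptor genes make up most of the top, and Il10, Tnfrsf4 and Pdcd1 lie below 0. On the right T cell genes such as Cd40lg (7.35) oppose granule and Ly49 genes such as Gzma (−6.19).

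Against NK cells the members had more RNA of T cell receptor signalling and helper genes, of Il4 and of Cxcr6, and 7 of 13 cytotoxic granule genes were lower while 0 were higher. In that comparison, with the same test over 8346 genes, 394 (4.72%) were higher and 400 (4.79%) lower in the members. Without the KO-labelled premalignant library the numbers were 199 and 216, and without KO-labelled eHCC 253 and 274. Since Cd3, Ncr1 and Klrb1c defined both populations, the genes of the rule were left out here too. Genes that accompany Cd3 or Ncr1 in a cell stayed in, so their differences are not independent of how the cells were chosen. Cd40lg, the helper ligand for B cells and dendritic cells, stood at 144, 140, 74.2 and 95.1 CPM in members and 1.33, 0, 0.77 and 0 CPM in NK cells (7.35, SE 0.34, adjusted p = 1.2e-06). Il4 rose by 5.95 (SE 0.44) and Cd6, an inhibitory scavenger receptor of T cells, by 5.31 (SE 0.35). Of 18 antigen receptor signalling genes 9 rose and 2 fell, with Lat, the adaptor that links the receptor to downstream kinases, at 1.99 and Cd28 at 2.07. Zbtb16 rose by 2.43 (SE 0.37, adjusted p = 0.0022), from 16, 6.85, 8.48 and 0 CPM in NK cells. Bcl11b, the T lineage factor, rose by 3.17. Trav11 had 117 UMIs in members and 0 in NK cells. Cxcr6 was at 653 ± 472 CPM (SD over 4 libraries) in members and 159 ± 92.1 CPM in NK cells, a log2 fold change of 1.98 (SE 0.15, adjusted p = 1.5e-05) over the library block, and was higher in 4 of 4 libraries.

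Many killer genes were higher in the NK cells, which had to have Ncr1 UMIs while members had to have none. For Ncr1 UMIs alone, the rule had removed 22, 9, 36 and 28 cells with Cd3 and Klrb1c UMIs. The differences below therefore describe the populations as chosen. Of 15 NKT1 genes, 10 fell and 1 rose, the latter being Cxcr3 (1.03). Among the 10, Klrc1, Klrd1 and Klrk1 also count among the killer lectin-like receptors below. Gzma, the granzyme most typical of NK cells, was at 112, 38.3, 171 and 1.76 CPM in members and 6374, 5695, 7460 and 1848 CPM in NK cells (−6.19, SE 0.36, adjusted p = 3.5e-06). Prf1, perforin, fell by 3.18 and Gzmb by 1.63. Members and NK cells did not pass the test for Ifng (0.33, adjusted p = 0.11), while Tnf (0.85) and Csf2 (2.51) rose. Ccl4 fell by 4.52, Xcl1 by 1.81 and Tbx21 by 0.52. Among 18 killer lectin-like receptors 13 fell and 0 rose (median −1.42), whereas 14 of 18 rose against the Klrb1c-negative counterparts. All 10 NK markers fell, with a median of −3.65. In the residency list 4 of 13 rose and 3 fell, and in the interferon list 10 of 24 rose and 0 fell, led by Ifi27l2a (2.93) and Ly6a (2.72). Erythroid markers rose in 4 of 5 cases and the hepatocyte marker Serpina1c and the myeloid marker Apoe rose as well, although Apoe turned to −0.38 after thinning.

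Within the members, cells with a Zbtb16 UMI were compared with those without one. They numbered 58, 39, 23 and 9, with median depths of 4932, 4699, 8131 and 7501 UMIs against 4519, 4313.5, 9271 and 6958 UMIs for the others. Of 5822 genes, 1 (0.0172%) rose and 10 (0.172%) fell. Neither Trav11 (0.15, SE 0.42, edgeR adjusted p = 0.99) nor Cxcr6 (0.16, SE 0.16, adjusted p = 0.94) passed the test. Rgcc, a regulator of the cell cycle, rose by 1.30 (SE 0.21, edgeR adjusted p = 0.012), from 43.3, 24.3, 84.0 and 150 CPM to 109, 70.5, 281 and 314 CPM. Klra1 fell by 3.18 (SE 0.45), Ccl3 by 3.23 (SE 0.52), Fabp4, a fatty acid carrier of endothelium and macrophages, by 2.57 (SE 0.48) and Spry2, a brake on growth factor signalling, by 1.83 (SE 0.30). Of 8 endothelial markers 0 were above 0 (median −1.26) and 0 passed the test, and the part of endothelial RNA in the split was not tested. Without KO-labelled eHCC 0 genes rose and 1 fell (250 genes had an unadjusted p under 0.05), and without WT-labelled premalignant 2 rose and 21 fell. Without KO-labelled premalignant 3 rose and 9 fell. The calls of Rgcc, Klra1, Fabp4 and Spry2 were lost without KO-labelled eHCC, while that of Ccl3 was kept without any single library. Among members with at least 2 Klrb1c UMIs Rgcc turned to −0.36.

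Members with a Cd4 UMI numbered 50, 27, 18 and 8, and 21, 5, 5 and 2 of these had a Zbtb16 UMI too. Of 5694 genes 5 (0.0878%) rose and 54 (0.948%) fell in them against Cd4-negative members. Gzmk rose by 3.41 (SE 0.69, edgeR adjusted p = 0.014), with only 26 and 14 UMIs in the 2 sets, Ctla4 by 2.01 and S100a4, a motility gene of effector cells, by 0.75 (SE 0.14). Jaml, an adhesion molecule, fell by 3.31 (SE 0.71) and Cd74, the invariant chain of antigen-presenting cells, by 1.87 (SE 0.34). RNA of other cell types moved with this split: the 4 haemoglobin genes tested fell (median −4.00 of the erythroid list, Hbb-bs by 3.84), the B cell markers Cd74 and H2-Aa (−1.61) fell, and the hepatocyte marker Serpina1c rose by 2.10. Their part in the other calls was not tested. Without each library in turn the numbers that rose and fell were 6 and 27 (KO-labelled premalignant), 3 and 28 (WT-labelled premalignant), 1 and 13 (KO-labelled eHCC) and 3 and 18 (WT-labelled eHCC). With DESeq2's size factors 10 genes fell, and by DESeq2's own Wald test 3 rose and 0 fell (104 genes at an unadjusted p under 0.05). Gzmk kept its call without any single library, while Ctla4, S100a4, Jaml and Cd74 each lost it without at least 1, and S100a4 turned to −1.97 after thinning.

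The KO- and WT-labelled libraries were then compared at each stage. Here a difference is the log2 ratio of CPM of summed member UMIs with an exact conditional binomial 95% interval, read only for genes with at least 50 UMIs in both libraries together, and a gene is called past 2-fold when the ratio exceeds 1 in size. The premalignant members had more RNA of the nuclear receptor genes Nr4a2 and Nr4a3 in the KO-labelled library, and the eHCC members did too. Of 5465 genes, 156 (2.85%) were past 2-fold higher and 88 (1.61%) past 2-fold lower in KO-labelled premalignant members. Scaled by TMM, which sets the typical gene to 0, those numbers were 122 and 101. Of 3879 genes in eHCC, 142 (3.66%) were higher and 147 (3.79%) lower, and with TMM 208 and 89. The TMM scaling moved all eHCC ratios by 0.17, where the median of all genes was −0.04. Among 3799 genes read at both stages, 12 were past 2-fold higher and 9 past 2-fold lower at both, and 6 past it in opposite directions.

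Nr4a2 (chr2:57106830-57124003) encodes an orphan nuclear receptor induced by antigen receptor signals. It stood at 64.5, 8.76, 253 and 65.1 CPM, log2 ratios of KO over WT of 2.88 (1.83 to 4.14) in premalignant tissue and 1.96 (1.46 to 2.49) in eHCC. In premalignant tissue 1 cell held 20% of the 80 Nr4a2 UMIs of the KO-labelled members. Its relative Nr4a3 stood at 74.1, 31.7, 380 and 141 CPM, or 1.22 (0.61 to 1.88) and 1.43 (1.09 to 1.79). Counterparts had ratios above 0 for both: 0.56 and 1.84 for Nr4a2, and 1.02 and 0.93 for Nr4a3. Both genes were thus higher in the KO-labelled library at each stage and in both T cell populations.

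Also named as higher at both stages were Sidt1 (1.16 and 1.42), Kbtbd2 (1.56 and 1.12), Phlda1 (1.07 and 2.38), Pdlim1 (1.42 and 1.07) and the histone methyltransferase gene Dot1l (1.07 and 1.18). Named as lower at both stages were Cd72 (−0.78 and −0.81), Gstp3 (−1.27 and −0.76), the nucleosome-binding gene Hmgn2 (−0.75 and −0.80), Pdcd7, Asnsd1, Xpa, Pkp3 and Ctss (all between −0.68 and −0.95). The interval of Asnsd1 included 0 at both stages, with upper ends of 0.042 and 0.067, and those of Cd72 and Pdcd7 included it in eHCC (0.037 and 0.11). After thinning to 1500 UMIs, the premalignant ratios of Sidt1, Phlda1, Pdlim1 and Ctss changed sign, to −0.45, −0.23, −0.55 and 0.094. The MEF2 motif (CTA, any 4 bases, TAG, either strand) was sought in the promoters at hand. It was in 0 of 6 higher genes, 0 of 6 lower ones and 4.23% of all genes with a promoter.

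**Figure D4:**
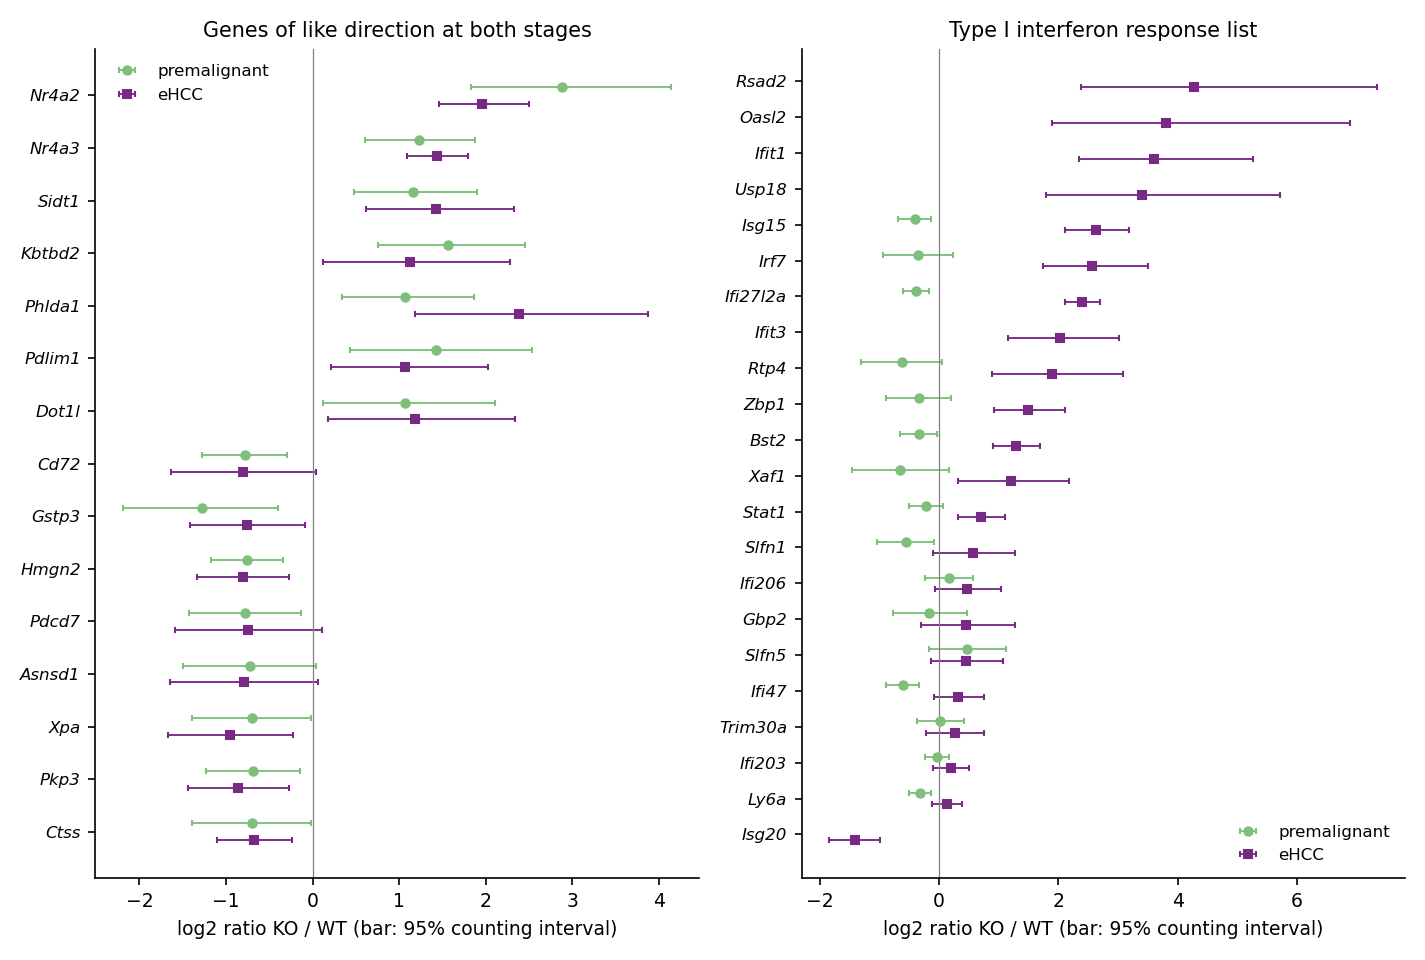
Log2 ratio of KO-labelled to WT-labelled members with 95% counting intervals, for genes named as alike in direction at both stages (left) and the type I interferon list (right), premalignant in green circles and eHCC in purple squares. A gene has no point where it had fewer than 50 UMIs in both libraries together. On the right nearly all eHCC values lie above 0 and Isg20 (−1.41) below, whereas most premalignant values lie below 0.

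Genes of the type I interferon response, which cells switch on when interferon α or β binds its receptor, differed by stage. In eHCC, 21 of the 22 read were higher in the KO-labelled members, 12 of them past 2-fold, with a median log2 ratio of 1.24 beside −0.04 over all genes. In premalignant tissue 4 of 17 were above 0, 0 were past 2-fold and the median was −0.34 beside 0.07. The counterparts had medians of 0.90 and −0.41. Isg15, a ubiquitin-like modifier, stood at 184, 244, 347 and 56.3 CPM, ratios of −0.41 (−0.68 to −0.14) and 2.62 (2.10 to 3.19). Ifi27l2a, an interferon-induced mitochondrial membrane protein gene, stood at 279, 366, 946 and 180 CPM (−0.39 and 2.40). Irf7, the factor that amplifies interferon production, stood at 41.9, 53.6, 135 and 22.9 CPM (−0.36 and 2.56), and Bst2, the virus tether tetherin, at 145, 184, 292 and 120 CPM (−0.34 and 1.29). All 4 genes were highest in KO-labelled eHCC and lowest in WT-labelled eHCC. After thinning to 1500 UMIs Irf7 was no longer lowest there: its log2 ratio of WT-labelled eHCC to WT-labelled premalignant members turned to 0.52. Isg20, an exonuclease gene of the same list, was the exception, at 15.3, 14.2, 70.0 and 187 CPM (−1.41 in eHCC).

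Some of this RNA sat in few cells. In KO-labelled eHCC members 1 cell held 41.9% of the Ifit1 UMIs, 34.9% of the Cxcl10 UMIs and 15.3% of the Isg15 UMIs. Ifit1, which binds viral RNA, had a ratio of 3.61 (2.35 to 5.26) there and its counterparts 1.14. Cxcl10, the chemokine ligand of Cxcr3, stood at 20.1, 8.76, 353 and 45.8 CPM. The KO-labelled eHCC library also had the most erythroid RNA among members, and the WT-labelled eHCC library the most myeloid RNA (1943 CPM), and the part of either was not tested.

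Promoters of 3 of these genes are shown with the core of the interferon-stimulated response element (GAAA, any 2 bases, GAAA, either strand) in capitals, from RefSeq on GRCm38.p6 and from 250 bases before the start to 50 after it: Isg15 at chr4:156200769-156201068 (minus strand), Ifit1 at chr19:34640639-34640938 (plus strand) and Cxcl10 at chr5:92348840-92349139 (minus strand).
Isg15 promoter: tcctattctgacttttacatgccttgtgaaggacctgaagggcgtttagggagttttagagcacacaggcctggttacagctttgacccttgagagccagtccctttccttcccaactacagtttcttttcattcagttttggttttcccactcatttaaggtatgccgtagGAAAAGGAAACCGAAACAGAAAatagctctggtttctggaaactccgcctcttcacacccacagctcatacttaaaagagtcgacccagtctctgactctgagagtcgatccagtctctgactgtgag
Ifit1 promoter: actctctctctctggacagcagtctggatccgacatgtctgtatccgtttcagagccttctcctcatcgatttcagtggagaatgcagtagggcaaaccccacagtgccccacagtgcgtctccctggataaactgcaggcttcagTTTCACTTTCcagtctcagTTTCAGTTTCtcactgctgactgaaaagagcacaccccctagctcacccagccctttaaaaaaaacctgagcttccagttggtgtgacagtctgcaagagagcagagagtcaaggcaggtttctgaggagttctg
Cxcl10 promoter: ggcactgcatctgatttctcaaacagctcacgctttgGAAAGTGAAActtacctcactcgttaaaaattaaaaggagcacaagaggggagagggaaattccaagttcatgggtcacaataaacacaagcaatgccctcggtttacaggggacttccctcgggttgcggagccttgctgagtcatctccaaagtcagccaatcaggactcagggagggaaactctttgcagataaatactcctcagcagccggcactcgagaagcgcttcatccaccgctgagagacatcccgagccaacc
Isg15 held 3 matches, which begin 78 to 66 bases before the start, Ifit1 held 2, at 104 and 85 bases before it, and Cxcl10 held 1, at 213 bases before it. Of the 24 listed genes, 17 had a promoter in the table and 11 of these (64.7%) held the motif. Of all 27025 genes with a promoter there, 1079 (3.99%) held it in any of their promoters. The AP-1 motif TGANTCA was in 6 of the 17 (35.3%), against 8.97% of all genes with a promoter.

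Other pathways were of smaller or mixed difference between labels. Glycolysis genes had a median ratio of −0.28 in premalignant tissue (3 of 14 above 0) and 0.37 in eHCC (11 of 14), with −0.07 and 0.54 in counterparts. Gapdh, for example, stood at 618, 846, 900 and 597 CPM. Of the MEF2 and class IIa HDAC genes 4 of 4 read were above 0 in premalignant tissue (median 0.67) and 2 of 2 in eHCC (0.26). The medians of the same genes in counterparts were 0.61 and 0.43, so these shifts were not particular to the members. Cytokine genes differed little in premalignant tissue: Ifng had a ratio of 0.17, Ccl5, a chemokine for T cells and monocytes, 0.0060, and Il4 −0.47 (−0.91 to −0.04). In eHCC, Ifng had −0.62, Il4 −0.46, Ccl5 0.92 and Gzmb 1.33 in the KO-labelled members, and Cxcr6 −1.03, Itga1 −2.33, Fos −1.85 and Jun −1.67. Fos and Jun, the AP-1 subunits that respond within minutes to handling or activation, stood at 773, 651, 243 and 878 CPM and 848, 983, 275 and 877 CPM. Thus both were low only in the KO-labelled eHCC members among these 4 libraries. A list of 20 immediate-early genes that includes both had a median ratio of KO over WT in eHCC of −0.27 in members and −0.45 in counterparts.

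Between stages the members of the eHCC libraries had less RNA of Cxcr6, Ccr9, Zbtb16, Il4, Ifng, Tnf and Csf2, and more of Ccl3, Ccl4, Nr4a3 and S1pr1. In the whole list of cytokine and chemokine genes 4 of 10 were above 0 under each label. In the naive and egress list, which holds S1pr1, the numbers were 4 of 12 (KO label) and 4 of 9 (WT label). These contrasts share their libraries with those between labels. Under the KO label, 121 of 5413 genes (2.24%) were past 2-fold higher and 1030 (19.0%) past 2-fold lower in eHCC, with a median of all genes of −0.40. Under the WT label 80 of 3955 (2.02%) were higher and 353 (8.93%) lower, with a median of −0.24. TMM scaling moved these medians to 0.06 and −0.02 and the numbers to 364 and 394, and to 129 and 209. Ratios below are on the CPM scale and are to be read against these medians. Ribosomal protein RNA took 23.4%, 24.0%, 32.0% and 31.4% of member UMIs, and the members of the eHCC libraries were more deeply read. Among 3908 genes read under both labels, 33 were past 2-fold higher and 163 lower under both.

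Ccr9 (chr9:123678439-123784330), the gut homing receptor, differed most among the genes named as lower under both labels. It stood at 82.2, 109.5, 2.5 and 3.52 CPM, in 60, 55, 3 and 1 members, with log2 ratios of eHCC over premalignant of −5.04 (−7.34 to −3.45) under the KO label and −4.96 (−8.02 to −3.07) under the WT label. Counterparts had ratios of −2.56 and −1.06. Its neighbour Cxcr6 (chr9:123806475-123811760) stood at 888, 1196, 173 and 354 CPM, ratios of −2.36 (−2.58 to −2.14) and −1.76, and −0.73 and −0.70 in counterparts. Both were lower in each eHCC library, by more in the members than in the counterparts. Others lower under both labels were Mmp9, a matrix protease gene (−2.75 and −3.62), Art2b, an ADP-ribosyltransferase of T cells (−2.84 and −4.54), P2rx7, the ATP receptor (−2.67 and −2.23), and Dtx1 and Asb2 (−3.37 and −2.64, −2.33 and −3.31). Dnase1l3, also named (−4.50 and −3.93), is an endothelial marker, and endothelial markers as a list were past 2-fold lower in 7 of 8 and 4 of 4 cases.

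Zbtb16 (chr9:48654297-48836222) stood at 65.3, 51.5, 27.5 and 19.4 CPM, with stage ratios of −1.25 (−1.88 to −0.65) and −1.41 (−2.51 to −0.44). Tbx21 had −0.99 and −0.80, Il4 −1.12 and −1.14, and Cxcr3, the receptor for Cxcl9 and Cxcl10, −1.60 and −1.5. Ifng had −1.62 and −0.83, while its counterparts had −0.02 and 0.10. Tnf (−1.92 and −1.53) and Csf2 (−3.05 and −1.74) were lower as well. Antigen receptor signalling genes were above 0 in 1 of 17 and 0 of 16 cases, with medians of −0.59 and −0.71 in members and −0.18 and −0.13 in counterparts. The constant gene Trac stood at 773, 937, 430 and 428 CPM. The 2 labels agreed in direction for each of these genes.

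Higher in eHCC under both labels were the chemokine gene Ccl4 (37.9, 31.7, 345 and 153 CPM; 3.19 and 2.27), Nr4a3 (2.36 and 2.15), the Ly49 gene Klra7 (1.81 and 2.49), the galectin gene Lgals3 (1.76 and 1.83), Pmepa1, a target of TGF-β signalling (1.90 and 2.27), Isg20 (2.19 and 3.71), Litaf (1.57 and 2.14) and the lysosomal protease gene Ctss (1.66 and 1.63). Myeloid markers read in the members were above 0 in 1 of 2 cases under the KO label and in 4 of 4 under the WT label. The part of myeloid RNA in the genes just named, such as Lgals3 and Ctss, was not tested. Ccl3 stood at 16.1, 14.2, 180 and 93.3 CPM (3.48 and 2.71). S1pr1, the receptor that lets lymphocytes leave tissue, stood at 33.0, 15.3, 77.5 and 70.4 CPM (1.23 and 2.2), while in counterparts it was at −0.70 and −1.5. The direction for S1pr1 thus differed between members and counterparts under both labels. The median of the naive and egress list, which holds S1pr1, was −0.28 under the KO label and −0.21 under the WT label in members. Xcl1 was at 0.50 and 0.49. For Gzmb (1.07 and −0.75), Itga1 (−2.35 and 0.67) and Fos (−1.67 and 0.43) the labels went opposite ways.

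**Figure D5:**
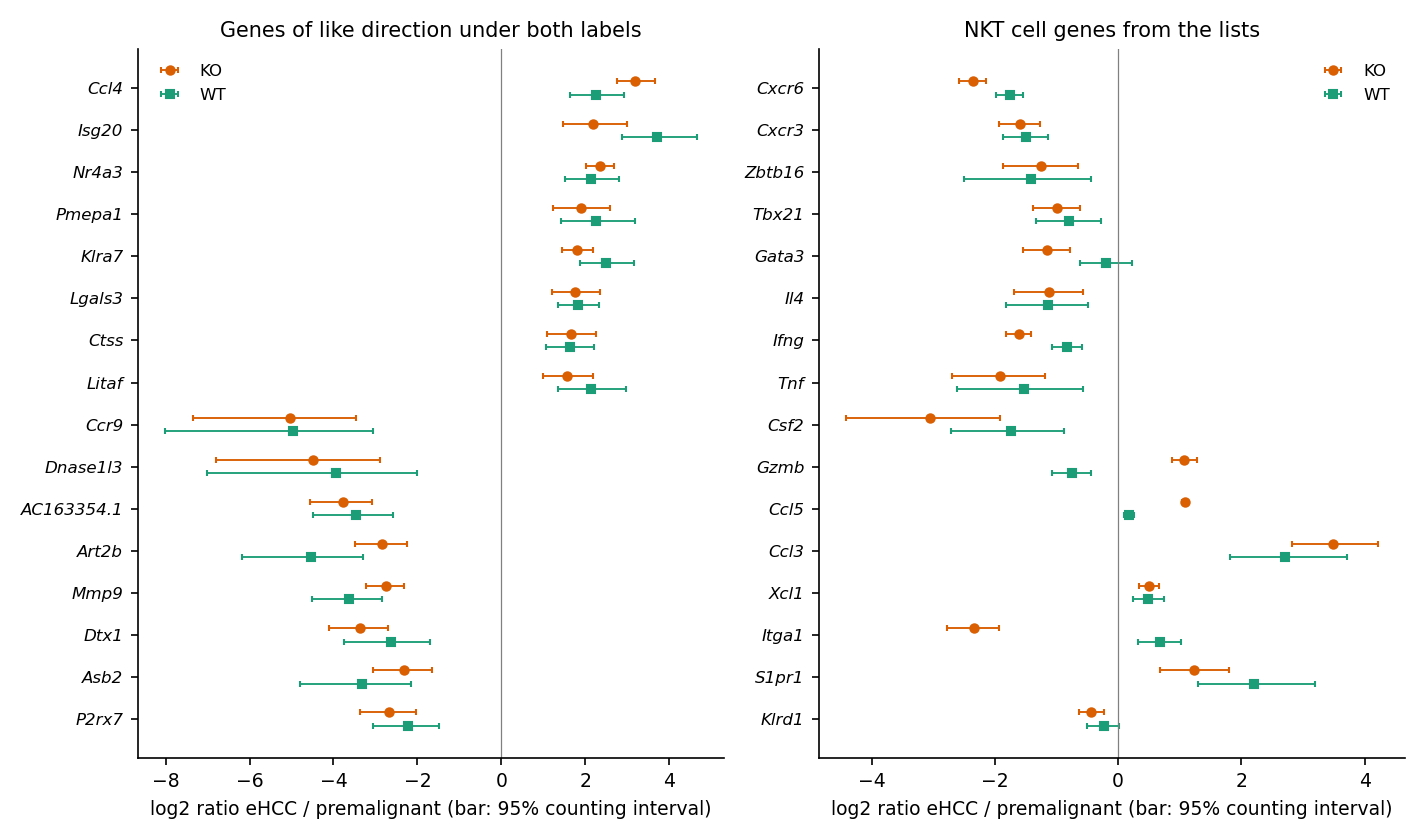
Log2 ratio of eHCC to premalignant members with 95% counting intervals, for genes named as alike under both labels (left) and NKT cell genes from the lists (right), KO label in orange circles and WT label in green squares. Ccr9, Cxcr6, Zbtb16 and Il4 lie below 0 under both labels, Ccl4, Ccl3 and S1pr1 above, and Gzmb and Itga1 on opposite sides.

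The partners that NKT cells meet in liver were read in other cells of the same libraries. Cd1d1 (chr3:86995834-86999441), which presents lipids to them, stood at 24.2, 30.1, 14.5 and 22.7 CPM in B cells, 17.6, 35.0, 12.3 and 11.7 CPM in Csf1r-positive barcodes and 7.04, 9.58, 27.7 and 32.2 CPM in Stab2-positive barcodes, the sinusoidal endothelium. Cxcl16, the ligand of Cxcr6, stood at 290.3, 297, 161 and 104.5 CPM in Stab2-positive barcodes and at 75.7, 176, 180 and 418 CPM in Csf1r-positive ones. The eHCC libraries had only 12 and 70 Stab2-positive barcodes, against 2389 and 4757 in premalignant tissue, and 722 and 3064 Csf1r-positive ones, against 224 and 368. Cxcl10 in Stab2-positive barcodes was at 173, 250.1, 1080 and 257 CPM, and Il18 in Csf1r-positive ones at 28.5, 65.3, 45.9 and 25 CPM. Over all barcodes Cxcl16 was at 120, 193, 50.9 and 258.5 CPM, lowest in the KO-labelled eHCC library. Within cell types the order was another: it was lowest in KO-labelled premalignant tissue in Csf1r-positive barcodes and in WT-labelled eHCC in Stab2-positive ones. The part of cell composition in the level over all barcodes was not tested.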

How the data were processed

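RNA was read in 4 libraries, 1 per group. The authors deposited unnormalised UMI counts for each barcode; the file headers give Cell Ranger 3.0.1. The submitters' processing notes name bcl2fastq 2.20.0 and the builds GRCh38 and mm10 without their roles. Doublets were left in: scrublet (scanpy 1.11.5, Python 3.11.15) marked under 0.5% of barcodes in 1 library by its own threshold, so a top share was removed only as an alternative. UMIs were summed per library and population. Populations were tested with edgeR 4.0.16 (R 4.3.3; quasi-likelihood, TMM, filterByExpr, library as block, Benjamini-Hochberg at 0.05). On simulated counts 66.5%, 75%, 63.5% and 51.5% of 200 genes changed 2-fold were recovered in the 4 tests, in the order of the text. Of the 141, 154, 139 and 109 genes called there, 8, 4, 12 and 6 were false calls. The simulation gave every gene the same dispersion and changed only genes with a mean count of at least 20. It therefore does not measure recovery for genes of fewer UMIs or of larger spread. Library contrasts have no test. Population comparisons name the 10 (within members, 5) highest and lowest called genes of at least 20 CPM alike in 4 libraries, library contrasts the 8 highest and 8 lowest alike in both contrasts, without receptor segments, ribosomal, mitochondrial and unnamed models, and list members by UMIs. A gene at 0 was set against 3 UMIs. The members and lists were chosen with earlier results of these data known. Motifs and sequences came from RefSeq (GRCm38.p6) and GENCODE vM21. Some genes are not reported here. The alternatives were the filters, scaling, thinning to 1500 UMIs, stricter members, doublets, DESeq2 1.42.0, no block and each library left out.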

Additional observations from a re-analysis of the deposited data

Results flagged for a closer look

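The interferon list of NKT-like cells had a median log2 ratio of KO-labelled to WT-labelled libraries of −0.34 in premalignant tissue and 1.24 in eHCC, and lay on opposite sides of 0 at the 2 stages. The glycolysis list did so with −0.28 in premalignant tissue and 0.37 in eHCC. In the Klrb1c-negative counterparts the medians were −0.41 and 0.90 for the interferon list and −0.07 and 0.54 for glycolysis. With 1 library per group these differences between stages were not tested.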

How the results depend on the processing

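Against T cells the log2 share ratios were 0.36 and 0.39 (KO over WT, premalignant and eHCC) and −2.12 and −2.15 (eHCC over premalignant, KO and WT label); against all barcodes after thinning to 1500 UMIs the stage ratios were −1.61 and −1.60. Genes past 2-fold, 244, 289, 1151 and 433 in the contrasts KO over WT in premalignant tissue, in eHCC, and eHCC over premalignant under the KO and the WT label, became 93, 140, 541 and 227 with at least 2 Klrb1c UMIs, 29, 23, 164 and 93 after thinning, 632, 817, 2181 and 1059 with a minimum of 20 UMIs per gene, and 758 under TMM for the stage contrast of the KO label.

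The comparison with counterparts (163 higher, 214 lower) gave 257 and 443 without a filter on low counts, 64 higher after thinning and 341 lower with at least 2 Klrb1c UMIs. That with NK cells (394 and 400) gave 621 and 604 without the filter, 80 and 106 after thinning, and 235 lower by DESeq2's Wald test. The Zbtb16 split (1 and 10) gave 4 and 3 by the Wald test, 19 and 47 without the filter and 10 and 34 without the highest doublet scores; the thinned split could not be fitted, since 1 library had 0 thinned Zbtb16-positive cells. The Cd4 split (5 and 54) gave 3 and 0 by the Wald test, 10 lower with DESeq2's size factors, 18 and 104 without the filter, 2 and 12 with at least 2 Klrb1c UMIs, 82 lower without the highest doublet scores and 0 and 277 after thinning.

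With no replicate block, that is without the library pairing the populations, edgeR called 15 higher and 25 lower against counterparts, 105 and 149 against NK cells, and 0 and 0 in the Zbtb16 split (115 genes at an unadjusted p under 0.05) and in the Cd4 split (149 genes). The library contrasts, unlike these population tests, have no pairs, because each group has 1 library. Leaving out 1 library at a time, the higher and lower calls ranged from 84 to 182 and 67 to 348 against counterparts, 199 to 416 and 216 to 367 against NK cells, 0 to 3 and 1 to 21 in the Zbtb16 split, and 1 to 6 and 13 to 28 in the Cd4 split.

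Among all called genes, 7 against counterparts, 5 against NK cells and 1 in the Cd4 split turned sign after thinning, and 3 against counterparts with at least 3 Cd3 UMIs, 1 against counterparts by the Wald test, and 1 in each split with at least 2 Klrb1c UMIs. Among the genes and lists named in the text or counted in it, after thinning, KO over WT in premalignant tissue turned to −0.45 (Sidt1), −0.23 (Phlda1), −0.55 (Pdlim1) and 0.094 (Ctss), the stage ratio of Ifit1 under the KO label to −0.022 and that of Irf7 under the WT label to 0.52, Apoe against NK cells to −0.38, S100a4 in the Cd4 split to −1.97, and the KO stage medians of naive and egress genes to 0.048 and of cytokines to 0.18. With at least 2 Klrb1c UMIs, KO over WT turned to −0.16 (Ifng) and −0.021 (S1pr1) in premalignant tissue, Rgcc in the Zbtb16 split to −0.36 and S100a4 to −6.5e-05. Under TMM the KO stage medians of heat shock and of naive and egress genes turned to 0.064 and 0.18. Of the other gene values in the library contrasts 691 stayed within their interval and 110 moved beyond it. The cause of these shifts was not tested. Genes of few UMIs per cell, such as Zbtb16 and Trav11, were limited by depth.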
